A study of Bos indicus and Bos indicus x Bos taurus and Bos taurus with 6 samples.

Results

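The 10 genes described here code for inflammatory cytokines and for regulators of NF-kB, the transcription factor that switches many of them on. They are IL1A, IL1B, IL1RN, TNF, IL6, CXCL8, PTGS2, NFKBIA, TNFAIP3 and NFKB1, and they were chosen by their gene symbol among the 21698 genes of the deposited count table. All 10 were found there, and 9 of 10 passed the filter on low counts. IL6 did not, and was kept in the fit because it had at least 1 read. Their RNA was compared in whole blood of cows of 3 breeds. Kedah-Kelantan is a Bos indicus breed of the tropics that the labels call tolerant of heat, Brangus is a composite of Bos indicus and Bos taurus that they call intermediate, and Holstein Friesian is a temperate Bos taurus breed that they call vulnerable. Each breed had 2 libraries, labelled as biological replicates, while the design text names 4 cows per breed. All animals were adult females, neither pregnant nor lactating, with a labelled age of 4.5 ± 1.2 years and a body weight of 450 ± 15 kg. They were kept at 1 farm and bled from the jugular vein under heat stress, given as a Temperature-Humidity Index of 44.68 with no formula. All 6 libraries carry this label, so the comparisons are between breeds under the same labelled heat load.

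NF-kB waits in the cytoplasm bound to inhibitor proteins, and signals from the receptors of IL-1, TNF and microbial products lead to the destruction of those inhibitors. The freed factor enters the nucleus and induces cytokines, chemokines and the enzyme of prostaglandin synthesis PTGS2, and also its own inhibitors NFKBIA and TNFAIP3, which close the loop. In blood, neutrophils and monocytes are the main carriers of the IL-1 family transcripts, and neutrophils are a known source of both IL1B and IL1RN. In the deposited coordinates, which are quoted as the authors' own, IL1A (chr11:46482553-46493533), IL1B (chr11:46543408-46551922) and IL1RN (chr11:46830420-46837406) lie in 1 cluster on chromosome 11, CXCL8 and NFKB1 lie on chromosome 6, and the others on chromosomes 4 (IL6), 9 (TNFAIP3), 16 (PTGS2), 21 (NFKBIA) and 23 (TNF). No other gene of the table overlaps the span of any of the 10.

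The libraries held 25275377 to 28668857 counted reads, and expression is given as CPM, the read count scaled by TMM-adjusted library size. The 2 Holstein Friesian libraries stood apart from each other. Of the 13456 genes tested, 32.6% differed by over 2-fold between them, against 13.9% for the Brangus pair and 3.49% for the Kedah-Kelantan pair. All listed markers of T cells (8), B cells (8), monocytes (10), NK and cytotoxic cells (8) and platelets (6) were detected in every library. Of 11 neutrophil markers in the table, CAMP was at 0 in 5 of 6 libraries and LTF in both Brangus libraries, and the other 9 were detected in every library. Because of the spread in Holstein Friesian, each comparison with that breed is given with both libraries and with each left out.

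In Kedah-Kelantan and Brangus, transcript abundance per gene length (FPKM) was higher for IL1B, NFKBIA, IL1RN and NFKB1 than for the other members. In Kedah-Kelantan, IL1B stood at 90.0 ± 3.54 FPKM (SD, n = 2) and NFKBIA at 84.2 ± 9.11, which differ by less than the SD of NFKBIA. IL1RN followed at 51.1 ± 5.82 and NFKB1 at 39.7 ± 2.503. TNFAIP3, CXCL8 and TNF formed a middle group in that breed, at 10.5, 8.79 and 7.96 FPKM. PTGS2 (0.43), IL1A (0.30) and IL6 (0.015) were the least abundant. In Brangus the top of the order was IL1B at 151.8 ± 26.4 FPKM and NFKBIA at 73.8 ± 6.34, and TNFAIP3 stood below TNF and CXCL8 with 5.43 ± 0.806 against 11.2 ± 0.191 and 7.07 ± 0.396 FPKM. In Holstein Friesian the SD exceeded the mean for IL1A, IL1B, IL1RN, IL6 and PTGS2, so no order was read from its means. In its replicate 1, IL1B stood at 17.9 and IL1RN at 11.4 FPKM, nearer to TNF at 8.52 FPKM than to NFKBIA at 58.5.

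**Figure D1:**
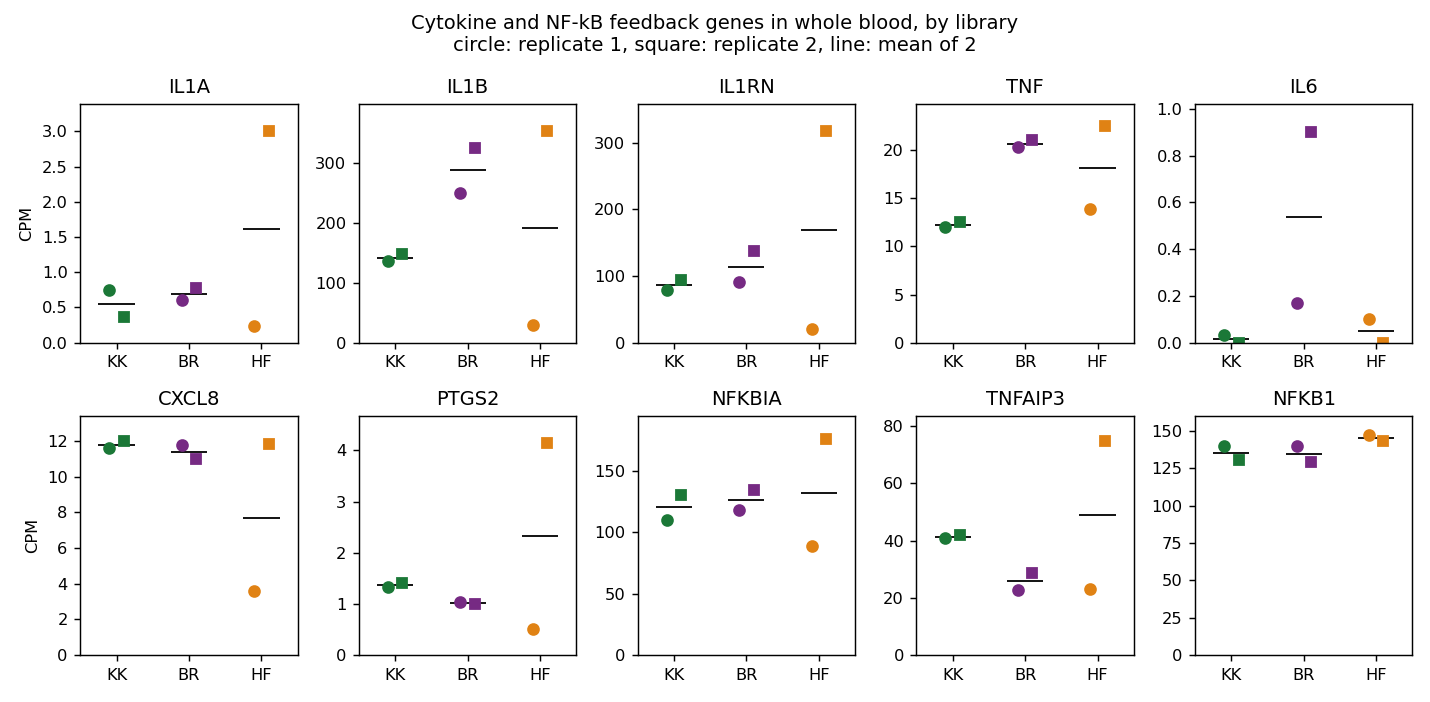
Expression of the 10 genes in CPM (vertical axes, from 0) in 2 libraries each of Kedah-Kelantan (KK), Brangus (BR) and Holstein Friesian (HF), with circles for replicate 1, squares for replicate 2 and a line for their mean. The HF pair is far apart for IL1A, IL1B, IL1RN, PTGS2, CXCL8 and TNFAIP3, whereas NFKB1 lies between 129 and 147 CPM in all 6 libraries.

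Among the ligands, IL1B, the secreted pyrogenic cytokine made as an inactive precursor, was the most abundant. It was measured at 136 and 147 CPM in the Kedah-Kelantan libraries, 250.3 and 324 CPM in the Brangus pair, and 29.9 and 353 CPM in Holstein Friesian replicates 1 and 2. Both Brangus libraries thus lay above both Kedah-Kelantan libraries, and the Holstein Friesian pair enclosed the other 4. With all 6 libraries, the log2 fold change of Kedah-Kelantan against Brangus was -1.02 (SE 1.03) with an adjusted p of 0.732 (edgeR quasi-likelihood test, adjusted over all genes). IL1A, the membrane-bound alarmin form of IL-1, was scarce, with 23 and 11 reads in the Kedah-Kelantan pair, 14 and 18 in the Brangus pair, and 7 and 79 in the Holstein Friesian pair. This corresponds to 0.740, 0.357, 0.599, 0.773, 0.235 and 3.003 CPM in the same order. Its values in Kedah-Kelantan and Brangus overlapped, and again the Holstein Friesian libraries were the lowest and the highest.

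IL1RN codes for the antagonist that occupies the IL-1 receptor without signalling. Its level was 78.9 and 94.6 CPM in the Kedah-Kelantan pair, 91.0 and 137 CPM in the Brangus pair, and 20.5 and 317 CPM in the Holstein Friesian pair. Kedah-Kelantan and Brangus overlapped here, unlike for IL1B, and their log2 difference was -0.39 (SE 1.12, adjusted p = 0.922, edgeR). Counted per 100 IL1B reads within the same library, IL1RN had 57.9 and 64.3 reads in the Kedah-Kelantan pair, 36.4 and 42.3 in the Brangus pair, and 68.6 and 89.9 in the Holstein Friesian pair. The 3 breeds did not overlap in this ratio, the only one of 6 ratios between members for which that was so apart from IL1A per IL1B, where Brangus lay at 0.239 and 0.239, Kedah-Kelantan at 0.542 and 0.243, and Holstein Friesian at 0.786 and 0.851 reads per 100. The IL1RN per IL1B ratio averaged 61.1 ± 4.57 (SD, n = 2) in Kedah-Kelantan, 39.3 ± 4.22 for the Brangus pair and 79.2 ± 15.1 in the Holstein Friesian pair. The Kedah-Kelantan ratio was 1.56-fold that of Brangus. With 2 libraries against 2 the two-sided exact permutation test can go no lower than p = 0.333, which is the value it gave for each pair of breeds (adjusted p = 0.667 over the 18 ratio comparisons made), so these ratios are descriptions of 6 libraries. The ratio does not depend on library size scaling. It was looked at after the levels of both genes were known.

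**Figure D2:**
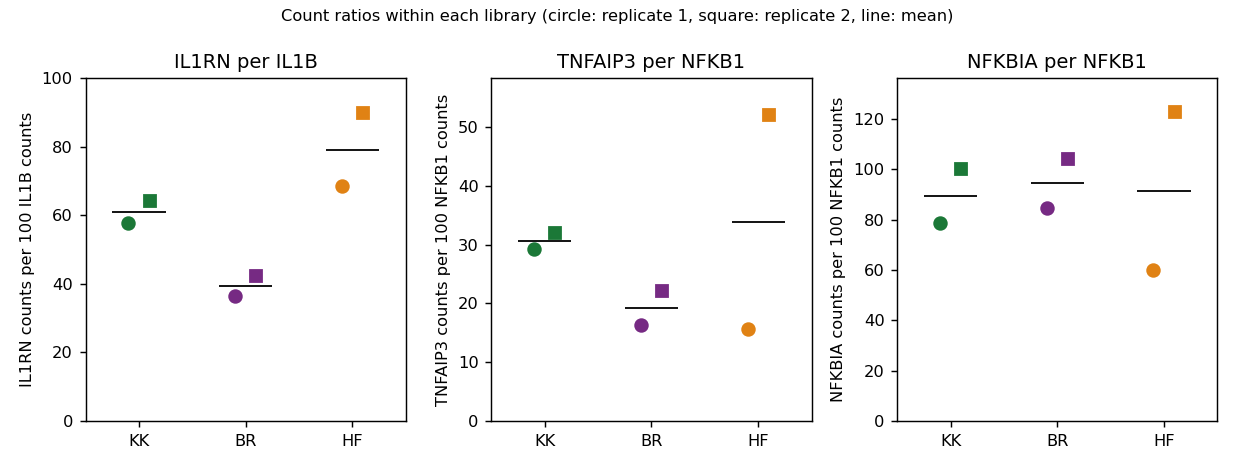
Read counts of 1 member per 100 reads of another within each library (vertical axes, from 0) for Kedah-Kelantan (KK), Brangus (BR) and Holstein Friesian (HF), with circles for replicate 1, squares for replicate 2 and lines for means. IL1RN per IL1B separates the breeds without overlap, with Brangus lowest at 36.4 and 42.3, while NFKBIA per NFKB1 overlaps among all 3.

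TNF, the cytokine that drives vascular inflammation and fever through its own receptors, was measured at 12.003 and 12.512 CPM in the Kedah-Kelantan pair, 20.3 and 21.1 CPM in the Brangus pair, and 13.9 and 22.5 CPM in the Holstein Friesian pair. Both Kedah-Kelantan libraries were the lowest of the 6, and the Brangus pair fell inside the Holstein Friesian pair. In the fit to all 6 libraries TNF had the smallest p of the 10 members between Kedah-Kelantan and Brangus, with a log2 fold change of -0.76 (SE 0.29, unadjusted p = 0.0448, adjusted p = 0.423, edgeR). IL6, a cytokine that induces acute phase proteins in liver, was near the limit of detection. It had 1 and 0 reads in the Kedah-Kelantan pair, 4 and 21 in the Brangus pair, and 3 and 0 in the Holstein Friesian pair. A floor set at 3 reads equals 0.0975 CPM in Kedah-Kelantan replicate 2 and 0.114 CPM in Holstein Friesian replicate 2. The exact 95% interval of a count of 0 reaches 3.69 reads. Pooled over libraries, the Brangus level was 33.2 times that of Kedah-Kelantan (25 reads against 1, 95% interval 5.43 to 1361) and 10.03 times that of Holstein Friesian (25 reads against 3, 3.06 to 51.9). These exact intervals cover counting error only, and 21 of the 25 Brangus reads came from replicate 2. Such unevenness was seen in Brangus and Holstein Friesian alike: of 1418 genes with 16 to 30 reads in a Brangus library, 24% had at most 4 in the other, against 21.4% in Holstein Friesian and 3.14% in Kedah-Kelantan.

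CXCL8, the main chemoattractant of neutrophils, was measured at 11.617 and 11.992 CPM in the Kedah-Kelantan pair, 11.775 and 10.998 CPM in the Brangus pair, and 3.59 and 11.823 CPM in the Holstein Friesian pair. Apart from Holstein Friesian replicate 1, which was lower, all libraries lay within about 1 CPM of each other. The Kedah-Kelantan and Brangus levels differed by 0.05 on the log2 scale (SE 0.56, adjusted p = 0.980, edgeR). PTGS2, the inducible cyclooxygenase that makes prostaglandin H from arachidonic acid, had 41 and 43 reads in the Kedah-Kelantan pair, 24 and 23 in the Brangus pair, and 15 and 109 in the Holstein Friesian pair, which is 1.32, 1.40, 1.03, 0.988, 0.503 and 4.14 CPM. Kedah-Kelantan lay above Brangus without overlap, but the log2 difference of 0.43 was smaller than its SE of 1.04 (adjusted p = 0.902, edgeR).

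The inhibitors followed different patterns. NFKBIA, which codes for the I kappa B alpha protein that holds NF-kB in the cytoplasm, was measured at 110.1 and 130.9 CPM in the Kedah-Kelantan pair, 118 and 135 CPM in the Brangus pair, and 88.6 and 176 CPM in the Holstein Friesian pair. All 3 breeds overlapped, and no pairwise difference in its mean exceeded 0.14 on the log2 scale. TNFAIP3 codes for A20, the ubiquitin-editing enzyme that ends signalling upstream of NF-kB. It was measured at 40.8 and 41.8 CPM in the Kedah-Kelantan pair, 22.9 and 28.6 CPM in the Brangus pair, and 23.1 and 74.7 CPM in the Holstein Friesian pair. Kedah-Kelantan lay above Brangus without overlap, the opposite order to IL1B and TNF. NFKB1, the gene of the p105 precursor and the p50 subunit, was the steadiest member, at 139.95 and 131 CPM in the Kedah-Kelantan pair, 139.7 and 129 CPM in the Brangus pair, and 147 and 143 CPM in the Holstein Friesian pair. Per 100 NFKB1 reads, TNFAIP3 had 29.2 and 32.0 reads in the Kedah-Kelantan pair, 16.4 and 22.1 in the Brangus pair, and 15.7 and 52.1 in the Holstein Friesian pair.

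In the fit to all 6 libraries no member passed an adjusted p of 0.05 in edgeR's quasi-likelihood test in any comparison. The smallest adjusted p among them was 0.995 for Kedah-Kelantan against Holstein Friesian, 0.666 for Brangus against Holstein Friesian and 0.423 for Kedah-Kelantan against Brangus. Of all genes, 0.00743% were called in each comparison with Holstein Friesian (1 gene, LOC539009, named here after its values were seen) and 0% between Kedah-Kelantan and Brangus. At an unadjusted p under 0.05 the members numbered 0, 0 and 1 (TNF), beside 4.04%, 7.62% and 11.6% of all genes, and DESeq2 called 0 members in each comparison, beside 1.01%, 2.28% and 4.93% of all genes. Between Kedah-Kelantan and Brangus, 2 members lay higher in Kedah-Kelantan without overlap (PTGS2 and TNFAIP3), as 33.4% of all genes did, and 3 lower (IL1B, TNF and IL6), as 30.7% did. Against Holstein Friesian the non-overlapping members were TNF and NFKB1, both lower in Kedah-Kelantan (12.6% of all genes, and 18.1% higher), and for Brangus IL6, higher (18.4%), and NFKB1, lower (15.9%). The median log2 fold change of the 10 members was -0.50 for Kedah-Kelantan against Holstein Friesian, -0.09 for Brangus against Holstein Friesian and -0.20 for Kedah-Kelantan against Brangus, beside -0.03, -0.03 and 0.02 over all genes. With 1 library left out, the medians of the members ran from -0.87 to 0.98, -0.39 to 1.23 and -0.34 to -0.06 in that order. Both medians against Holstein Friesian thus changed sign with the library left out. The Kedah-Kelantan, Brangus and Holstein Friesian libraries each serve in more than 1 of these comparisons.

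When Kedah-Kelantan and Brangus were fitted without the Holstein Friesian libraries, 3 of the 10 members were called. IL1B was lower in Kedah-Kelantan, with a log2 fold change of -1.01 (SE 0.14, adjusted p = 0.00361, edgeR), that is, 2.01-fold higher in Brangus. TNF was also lower in Kedah-Kelantan, by a log2 fold change of -0.75 (SE 0.18, adjusted p = 0.0287, edgeR). TNFAIP3 was higher in Kedah-Kelantan, with a log2 fold change of 0.69 (SE 0.16, adjusted p = 0.0242, edgeR), or 1.62-fold. So the 2 cytokines and the A20 inhibitor differed in opposite directions between these breeds. Summed markers of several cell types also separated these breeds without overlap. Platelet markers were at 222 and 259 CPM in Kedah-Kelantan against 1004 and 1042 CPM in Brangus, and erythroid markers at 147 and 185 CPM against 446 and 641 CPM. Markers of NK and cytotoxic cells were at 666 and 749 CPM against 269 and 364 CPM, those of eosinophils, basophils and mast cells at 261 and 270.1 CPM against 38.7 and 36.5 CPM, and those of neutrophils and B cells were lower in Kedah-Kelantan. The part of these markers in the 3 calls was not tested. IL1RN (log2 fold change -0.39, adjusted p = 0.205) and IL6 (adjusted p = 0.128) did not pass, nor did PTGS2, and the values of NFKBIA (-0.06), CXCL8 (0.06) and NFKB1 (0.02) were each smaller than their SE. In this fit 18.7% of 13455 genes were called, 8.85% higher and 9.84% lower in Kedah-Kelantan. The fold changes were nearly the same as with 6 libraries, and the SE of IL1B was 1.03 there against 0.14 here. IL1B, TNF and TNFAIP3 were called likewise with 5 libraries, when Holstein Friesian replicate 1 was left out (18.3% of all genes called, 8.58% higher and 9.76% lower) or replicate 2 (18.4%, 8.25% and 10.1%). A single Holstein Friesian library has no replicate to differ from, so the spread in these fits came from the Kedah-Kelantan and Brangus libraries alone. The calls with 5 libraries therefore repeat the fit without Holstein Friesian and are no separate test of it. IL1B, TNF and TNFAIP3 were not called with DESeq2 on 6 libraries (adjusted p = 0.693, 0.243 and 0.665). Nor were they called when any Kedah-Kelantan or Brangus library was left out of the 6.

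**Figure D3:**
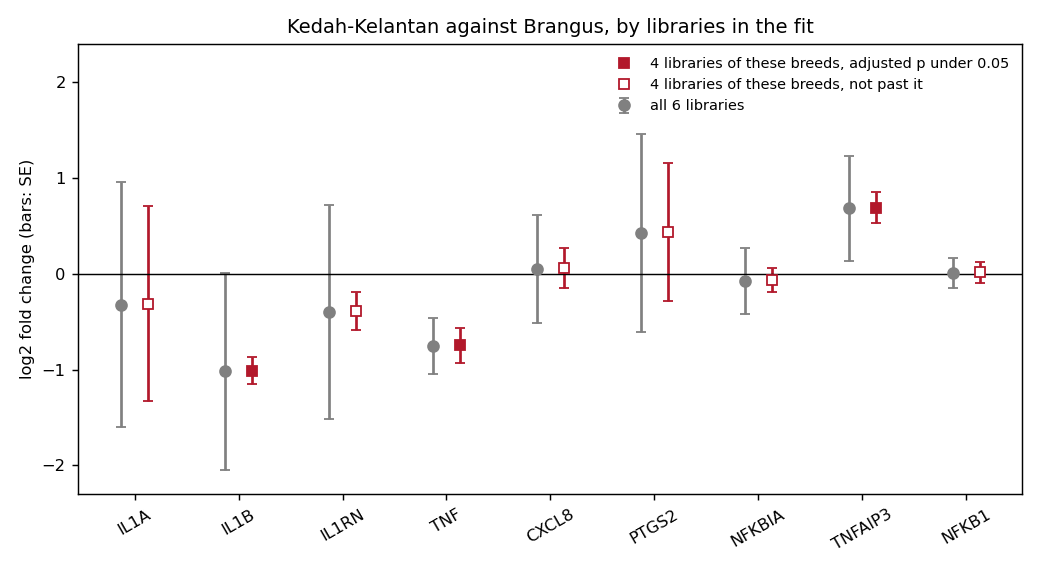
Log2 fold change of Kedah-Kelantan against Brangus (vertical axis, bars show the SE) for 9 members in edgeR fits to all 6 libraries (grey circles) and to the 4 libraries of these breeds (red squares, filled where the adjusted p is under 0.05). IL6 is left out because of its low counts. IL1B, TNF and TNFAIP3 are filled, and for IL1B the bar shrinks from 1.03 to 0.14 at nearly the same fold change.

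The Holstein Friesian libraries differed from each other in most members. Replicate 2 exceeded replicate 1 by 3.95 on the log2 scale for IL1RN (15.4-fold), 3.56 for IL1B (11.8-fold), 3.32 for IL1A and 2.87 for PTGS2. The gap was smaller for CXCL8 (1.70), TNFAIP3 (1.69), NFKBIA (0.99) and TNF (0.69), and NFKB1 differed by -0.04. IL6, with 3 and 0 reads, was lower in replicate 2 by 1.25. In all, 8 of 10 members were higher in replicate 2, 6 of them by over 2-fold, where 19.6% of all genes were over 2-fold higher. The median difference of all genes was -0.0026. Counted in either direction, 7 members differed by over 2-fold, beside 32.6% of all genes. No member differed by over 2-fold between the Kedah-Kelantan libraries (3.49% of all genes), and only IL6 did between the Brangus libraries (13.9%). These are differences between single libraries and carry no test.

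**Figure D4:**
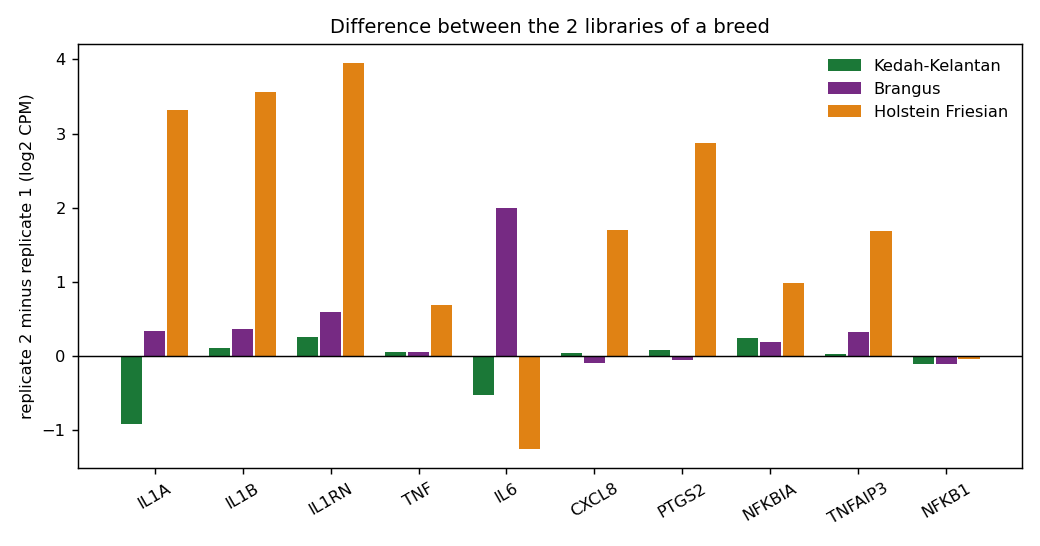
Difference between replicate 2 and replicate 1 of each breed in log2 CPM (vertical axis, computed with a prior count of 2) for the 10 members, with 1 bar per breed. Holstein Friesian bars reach 3.95 for IL1RN and stay near 0 for NFKB1, and in Kedah-Kelantan the widest is IL1A at -0.92, a gene with 23 and 11 reads.

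The direction against Holstein Friesian depended on which of its libraries was used. In these fits the remaining Holstein Friesian library is assumed to vary like the other breeds. Without replicate 1, 5 members were lower in Kedah-Kelantan: IL1RN (log2 fold change -1.87), IL1B (-1.32), TNF (-0.88), TNFAIP3 (-0.86) and NFKBIA (-0.55), with adjusted p from 0.00163 to 0.0489 (edgeR), where 18.2% of all genes were called and 11.2% were lower. Without replicate 2, 4 members were higher in Kedah-Kelantan: IL1B (2.202), IL1RN (2.04), CXCL8 (1.67) and TNFAIP3 (0.79), with adjusted p from 0.000954 to 0.0462 (edgeR), where 12.3% of all genes were called and 6.76% were higher. IL1B, IL1RN and TNFAIP3 were therefore called in both fits with opposite signs. For Brangus, leaving out replicate 1 gave 3 members lower than in Holstein Friesian, TNFAIP3 (-1.54), IL1RN (-1.48) and PTGS2 (-2.03), where 32.9% of all genes were called and 17.4% were lower. Leaving out replicate 2 gave 3 members higher, IL1B (3.23), IL1RN (2.44) and CXCL8 (1.63), where 6.05% of all genes were called and 4.42% were higher. Fitted with only the 4 libraries of the breeds compared, 0% of all genes and 0 members were called in either comparison with Holstein Friesian.

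Markers of blood cell types moved with these members. The 11 neutrophil markers in the table summed to 2413 and 2565 CPM in the Kedah-Kelantan pair, 2760.2 and 4351 CPM in the Brangus pair, and 789.5 and 7751 CPM in Holstein Friesian replicates 1 and 2. Monocyte markers (10 of 10 in the table) summed to 521 CPM in Holstein Friesian replicate 1 and 1593 CPM in replicate 2, and to 549 to 667 CPM in the other 4 libraries. CX3CR1 alone made up 397 of the 521 CPM in replicate 1 and ran the other way, with 145.0 CPM in replicate 2. The remaining 9 monocyte markers summed to 124 and 1448 CPM in these libraries, and to 404 to 449 CPM in the other 4. Markers of B cells ran the other way, with 2934 CPM in Holstein Friesian replicate 1 and 170.2 CPM in replicate 2, beside 1789 to 2966 CPM elsewhere. Between the 2 Holstein Friesian libraries, 10 of 10 neutrophil markers tested and 9 of 10 monocyte markers were higher in replicate 2, and 8 of 8 B cell markers were lower. In RNA of whole blood, fewer cells of a type and less RNA per cell cannot be told apart, and the part of these markers in the differences of the members was not tested.

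Set against the summed neutrophil markers of the same library, the spread of IL1B and IL1RN was much smaller. Per 100 CPM of neutrophil markers, IL1B had 5.65 and 5.74 CPM in the Kedah-Kelantan pair, 9.07 and 7.44 in the Brangus pair, and 3.79 and 4.55 in the Holstein Friesian pair. By this measure Brangus was highest and Holstein Friesian lowest, with no overlap among the breeds. The share of all genes without overlap on this scale is not given. IL1RN lay between 2.60 and 4.09 CPM per 100 in all 6 libraries. NFKB1 showed the reverse, with 18.6 and 1.85 CPM per 100 in the 2 Holstein Friesian libraries, whose NFKB1 levels themselves differed by 0.04 on the log2 scale. TNF also spread further on this scale than in CPM, with 1.76 and 0.290 CPM per 100 in the Holstein Friesian pair. Per 100 CPM of monocyte markers, CX3CR1 included, IL1B had 22.4 and 22.1 in the Kedah-Kelantan pair and 45.6 and 52.0 in the Brangus pair. The Holstein Friesian pair was at 5.74 and 22.2, which overlapped Kedah-Kelantan. IL1RN ran from 3.93 to 22.0 on that scale. In Holstein Friesian replicate 1, CX3CR1 made up 397 of the 521 CPM of monocyte markers, and the other 9 markers 124 CPM. The overlap with Kedah-Kelantan and the width of the spread therefore depended on including CX3CR1. Both scales were chosen after the levels had been seen, and their values are descriptions of 6 libraries.

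**Figure D5:**
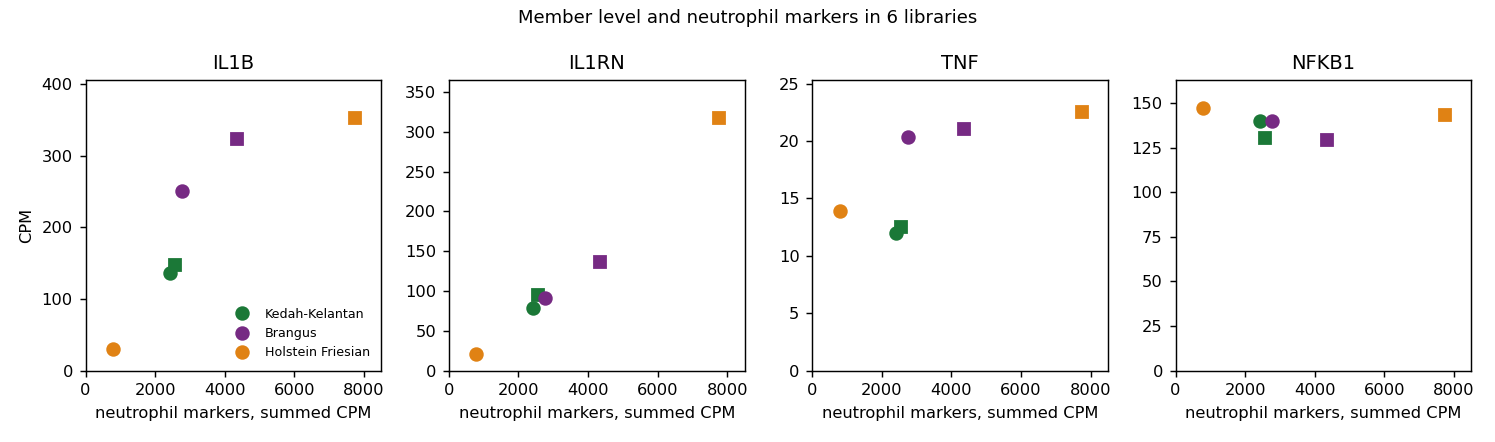
CPM of IL1B, IL1RN, TNF and NFKB1 (vertical axes, from 0) against the summed CPM of 11 neutrophil markers (horizontal axis) in the 6 libraries, coloured by breed, with circles for replicate 1 and squares for replicate 2. IL1RN climbs from 20.5 to 317 CPM as the marker sum goes from 789.5 to 7751, and NFKB1 stays between 129 and 147 CPM.

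Across the 6 libraries some pairs of members were closely correlated and others were not. On log2 CPM, Pearson's r was 0.97 for IL1RN with NFKBIA, 0.93 for IL1B with IL1RN, 0.93 for PTGS2 with TNFAIP3 and 0.90 for PTGS2 with NFKBIA. For NFKB1 with the other 9 it ran from -0.58 to 0.09. IL6, with its few reads, ran from -0.62 (TNFAIP3) to 0.44 (TNF), and TNF had 0.11 with TNFAIP3 and 0.27 with CXCL8. These values describe 6 points that share their library depth and scaling, and the 2 Holstein Friesian libraries lie at both ends of most of them. By the same measure, among 11059 genes with a mean log2 CPM of at least 1, the pattern most like IL1RN was that of LOC407171, an Fc gamma receptor gene (r = 0.999), followed by SMIM3 and SLC13A3. IL1B was most like GADD45G (0.997), LOC508459 and H2BC14, TNFAIP3 most like HP, the haptoglobin gene (0.997), with LTA4H and SERINC3 next, and NFKBIA most like HERPUD1 (0.998) and C3AR1, the receptor of complement fragment C3a (0.997), then ATP6V0C. CXCL8 was most like CPEB3 (0.996), LOC100847574 and MX1. TNF was most like LOC534155 (0.990), ATRAID and CYP20A1, and NFKB1 most like ECPAS (0.983), DOCK11 and SLC20A2.

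The wider pathway was read from 103 other genes of IL-1, TNF, NF-kB, inflammasome and prostaglandin biology, of which 102 were in the table and 93 were tested. None was called with all 6 libraries by edgeR in any pairwise comparison, and 5, 7 and 7 had an unadjusted p under 0.05 when Holstein Friesian was set against Kedah-Kelantan, when it was set against Brangus, and between the latter breeds, beside 4.04%, 7.62% and 11.6% of all genes. DESeq2 called IL18R1 in the first, ALOX5, CSF1 and IL18R1 in the second, and ALOX5, CCL3 and ICAM1 in the third, beside 1.01%, 2.28% and 4.93% of all genes. The median log2 fold change of the 93 was -0.27 for Kedah-Kelantan against Holstein Friesian and -0.19 for Brangus against Holstein Friesian, beside -0.03 over all genes in each. For Kedah-Kelantan against Brangus it was -0.01, beside 0.02 over all genes. With 1 library left out, the medians of the 93 ran from -0.67 to 0.33, -0.51 to 0.26 and -0.07 to 0.03 in that order, so no sign held. Like the members, 74 of the 93 were higher in Holstein Friesian replicate 2 than in replicate 1, 44 of them by over 2-fold. Of all genes, 19.6% were over 2-fold higher in replicate 2, and their median difference was -0.0026 on the log2 scale. The 12 receptors had a median difference of 2.39 on the log2 scale between these libraries and the 6 inflammasome genes 2.34, while the 19 adaptors and kinases had 0.39 and the other NF-kB subunits 0.53, nearer to the value for NFKB1.

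The pathway genes with the smallest p in the test of any breed difference, 2 per list, did not pass after adjustment and are given by their levels. IL18R1, a chain of the IL-18 receptor, was at 28.8 and 25.4 CPM in the Kedah-Kelantan pair, 29.4 and 33.1 CPM in the Brangus pair, and 75.0 and 49.8 CPM in the Holstein Friesian pair, which lay above the other 4 libraries. CSF1, the growth factor of monocytes, was likewise highest in both Holstein Friesian libraries, at 32.8 and 55.6 CPM, against 8.91 to 15.8 CPM in the other 4. IL18RAP, the other chain of that receptor, ranged from 19.1 CPM in Kedah-Kelantan replicate 1 to 38.4 CPM in Holstein Friesian replicate 1. NFKBIE, an inhibitor of the I kappa B family, was lowest in Kedah-Kelantan at 20.5 and 23.0 CPM and lay between 27.1 and 34.6 CPM elsewhere. TIRAP, an adaptor of Toll-like receptors, was at 33.3 and 36.9 CPM in Kedah-Kelantan and between 19.8 and 27.3 CPM elsewhere. REL, an NF-kB subunit gene, was at 38.7 and 28.1 CPM in Brangus, lower without overlap than the 44.9 and 62.8 CPM in Holstein Friesian, and Kedah-Kelantan overlapped both at 53.8 and 30.7 CPM. The inflammasome genes PYCARD (18.7 to 54.3 CPM) and NLRC4 (3.27 to 60.4 CPM) were both highest in Holstein Friesian replicate 2.

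In the fit restricted to Kedah-Kelantan and Brangus, 26 of these 93 genes were called by edgeR, 10 higher and 16 lower in Kedah-Kelantan, beside the 18.7% of all genes given above. Of 23 inducible targets, 8 were called lower there (CCL3, CD83, CXCL10, ICAM1, IL15, IL18, LTB and SOD2), 1 was called higher, CCL4, and 14 were not called. ICAM1, the endothelial and leukocyte adhesion molecule, was at 4.63 and 6.04 CPM in the Kedah-Kelantan pair, 15.5 and 24.1 CPM in the Brangus pair, and 10.1 and 9.62 CPM in the Holstein Friesian pair. SOD2, the mitochondrial superoxide dismutase, was at 112 and 125 CPM in the Kedah-Kelantan pair and 242 and 385 CPM in the Brangus pair. Both genes were lower in Kedah-Kelantan without overlap, as IL1B and TNF were. Among 12 receptors, CXCR1, CXCR2 (the receptors of CXCL8) and TNFRSF1A were lower in Kedah-Kelantan, and IL1R1, the signalling IL-1 receptor, and IL1RL1 were higher. CXCR1 and CXCR2 are also among the neutrophil markers. Among the other inhibitors and feedback genes, TNIP1, which codes for a partner of A20, and SOCS3 were lower, and ZC3H12A, which codes for an RNase that degrades IL6 RNA, and TNFAIP2 were higher. ZC3H12A was at 29.8 and 28.8 CPM in Kedah-Kelantan against 20.7 and 14.4 CPM in Brangus. NFKB2 was the subunit gene called, lower in Kedah-Kelantan with 77.0 and 77.9 CPM against 102.6 and 129 CPM, and TAB1 was the adaptor called, higher with 23.6 and 25.9 CPM against 12.7 and 12.2 CPM. No inflammasome gene of 6 was called.

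The prostaglandin and leukotriene genes held the widest differences among the 26 called genes. ALOX5, the enzyme of leukotriene synthesis, was at 66.8 and 64.6 CPM in the Kedah-Kelantan pair, 0.214 and 0 CPM in the Brangus pair, and 0.638 and 343 CPM in the Holstein Friesian pair. HPGD, which breaks prostaglandins down, was at 66.8 and 73.2 CPM in the Kedah-Kelantan pair, 4.02 and 0.859 CPM in the Brangus pair, and 0.302 and 164 CPM in the Holstein Friesian pair. In both genes the high libraries were those of Kedah-Kelantan and Holstein Friesian replicate 2. These libraries also held the highest summed markers of eosinophils, basophils and mast cells, 261 and 270.1 CPM in Kedah-Kelantan and 676 CPM in Holstein Friesian replicate 2, beside 33.4 to 38.7 CPM in the other 3, with 6 of 10 of those markers in the table. HDC was at 0 in 5 of the 6 libraries, and the part of these cells in ALOX5 and HPGD was not tested. PTGS2 shared the high value in Holstein Friesian replicate 2 but its log2 difference between Kedah-Kelantan and Brangus was 0.44 (SE 0.72) in the same fit. ALOX5AP and PLA2G4A were also called higher in Kedah-Kelantan, and PTGES3 and TBXAS1 lower. PTGES3, a cytosolic prostaglandin E synthase, was at 289 and 327 CPM in Kedah-Kelantan against 461 and 449 CPM in Brangus.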

How the data were processed

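Whole-blood RNA of 6 cow libraries, 2 per breed, was sequenced. Per the submitters' processing notes, the tools were HISAT2 2.2.1, featureCounts 2.0.1, DESeq2 1.38.0, Trimmomatic 0.39 and FastQC 0.11.9, with build ARS-UCD1.2. What each did, its settings and the strandedness are not given in the sources used. The authors deposited raw read counts per gene and FPKM values. The deposited FPKM equal the counts divided by gene length and library total (within 0.153% over 6134 genes), so they add no depth information.

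The test on counts used edgeR 4.0.16 (R 4.3.3): TMM scaling, filterByExpr with every member that had a read kept, and a robust quasi-likelihood fit with breed as the only term on all 6 libraries (3 residual degrees of freedom). Benjamini-Hochberg adjustment of p-values covered 13456 genes, and adjusted p under 0.05 was called. Positive log2 fold changes mean higher in the first breed named, and each SE was obtained as the fold change on that scale over the root of its F statistic. The fit of 2 breeds alone has 2 residual degrees of freedom. The members, gene lists and tests were chosen with earlier results of these data known. Named pathway genes were, per list, those called or otherwise the 2 with the smallest p of the any-breed test. Others are named because DESeq2 or the fit of 2 breeds called them, after their values were seen. Similar genes were the 3 of highest r for each member with a mean log2 CPM of at least 1. Alternatives were DESeq2 1.42.0, limma 3.58.1 on log2(FPKM + 0.1), other scaling and filters, removal of haemoglobin genes, a replicate block and leaving out each library. Replicates of a breed differed by more than sampling noise (chi-square per degree of freedom 17.9 for the Kedah-Kelantan pair, 40.0 for the Brangus pair and 498 for the Holstein Friesian pair). Whether the 2 libraries of a breed are 2 cows or pools is not stated beyond the label biological replicate. The edgeR p-values weigh the difference between breeds against the spread between these libraries. That spread was estimated over all breeds in the fit, with information shared among genes. The scripts were tested on simulated counts.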

Additional observations from a re-analysis of the deposited data

How the results depend on the processing

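The number of genes called depended on the tool and on the libraries fitted, more than on scaling or filters. For Kedah-Kelantan against Brangus no gene was called in the 6-library fit, 663 by DESeq2 and 2515 with these breeds alone, when 3 members and 26 pathway genes were called. For Kedah-Kelantan against Holstein Friesian 1 gene was called, 131 by DESeq2, and 0 with a mean count of at least 50, with these breeds alone or with the replicate block. For Brangus against Holstein Friesian 1 gene was called, 307 by DESeq2, and 0 with relative log expression scaling, a mean count of at least 50, these breeds alone or the replicate block. For any breed difference 0 were called, 625 by DESeq2, 1 with no filter and 1 with limma. DESeq2 called 3, 1, 3 and 3 pathway genes in the same order of comparisons. Leaving out 1 library gave 0 to 2472, 0 to 2455, 0 to 4424 and 0 to 4795 genes in that order, 0 to 3, 0 to 5, 0 to 3 and 0 to 4 members, and 0 to 27, 0 to 40, 0 to 49 and 0 to 53 pathway genes. The upper ends came from leaving out a Holstein Friesian library. Replicate numbers did not pair the samples (correlations of replicate differences between breeds were 0.03, -0.01 and 0.12), and with the replicate block 0 members were called.

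Between Kedah-Kelantan and Brangus, IL1B (-1.20 to -0.74), TNF (-0.79 to -0.49) and TNFAIP3 (0.52 to 0.94) kept their sign under every alternative run. So did CXCL8 (0.0037 to 0.31), IL1RN, IL6 and PTGS2, which were not called, so a kept sign was not particular to called members. Because IL1B, TNF and TNFAIP3 did not overlap between these breeds, leaving out 1 library could hardly turn their sign. Signs against Holstein Friesian changed. For Kedah-Kelantan, IL1B was 0.15 with the replicate block and 0.62 with limma, IL1RN 0.26, NFKB1 0.056, NFKBIA 0.10 and TNFAIP3 0.15 with limma. For Brangus, IL1RN was 0.057 with the replicate block and 0.36 with limma. NFKBIA between Kedah-Kelantan and Brangus was 0.19 with limma. The limma values on FPKM, which lack TMM scaling, shifted the median of all genes from -0.03 to 0.18 for Kedah-Kelantan against Holstein Friesian. The shift was from -0.03 to -0.09 for Brangus against Holstein Friesian, and from 0.02 to 0.28 between Kedah-Kelantan and Brangus. Leaving out 1 library gave the following ranges where the sign changed. For Kedah-Kelantan against Holstein Friesian they were CXCL8 -0.0023 to 1.67, IL1A -2.44 to 1.16, IL1B -1.32 to 2.202, IL1RN -1.87 to 2.04, IL6 -3.59 to 2.16, NFKBIA -0.55 to 0.40, PTGS2 -1.61 to 1.381 and TNFAIP3 -0.86 to 0.79. For Brangus against Holstein Friesian they were CXCL8 -0.054 to 1.63, IL1A -2.12 to 1.49, IL1B -0.30 to 3.23, IL1RN -1.48 to 2.44, NFKBIA -0.48 to 0.48, PTGS2 -2.03 to 0.96, TNF -0.12 to 0.53 and TNFAIP3 -1.54 to 0.12. For Kedah-Kelantan against Brangus they were IL1A -0.93 to 0.11, NFKB1 -0.047 to 0.057 and NFKBIA -0.20 to 0.049. The cause of these changes was not tested. Counts of IL1A, PTGS2 and IL6 limit what can be seen of them: with 1 to 25 reads per breed, IL6 cannot be compared beyond counting error and replicate spread.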
